A study of Mus musculus with 8 samples.

Results

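The measurements concern 10 mouse genes of bone mineralization, Alpl, Phospho1, Slc20a1, Enpp1, Ank, Mgp, Ibsp, Bglap, Dmp1 and Phex, among the 47643 named genes of the deposited expression table. They were picked by name for their known roles, with earlier results of these data known. Alpl and Phospho1 were taken as promoters of mineral deposition, and Enpp1, Ank and Mgp as inhibitors. All 10 were present in the table, 9 passed the filter on low counts, and Dmp1 did not. The same genes were looked up in the deposited list of N6-methyladenosine (m6A) peaks.

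The cells were primary mesenchymal stem cells (MSCs) flushed from the marrow of mouse tibiae and femurs, on a C57BL/6 background, with no age or sex in the labels. All of them spent 2 days in osteogenic medium with ascorbic acid at 50 μg/ml, β-glycerophosphate at 5 mM and dexamethasone at 100 nM. For RNA-seq, 2 libraries were labelled wild type (WT), which the study's figures equate with Mettl3fl/fl, and 2 were labelled Prx1-cre;Mettl3fl/fl (cKO), where Cre removes exons 2 and 3 of Mettl3, the m6A methyltransferase. Prx1-Cre acts in the mesenchyme of the early limb bud, so cells of another origin in such a culture keep the intact gene. For MeRIP-seq, an antibody against m6A enriched RNA fragments, and 2 immunoprecipitates and 2 inputs of wild-type MSCs gave 1 common peak list. Nothing in the labels says whether libraries of a group came from separate animals, so the p-values below measure the spread between these libraries only.

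Mineral in bone is calcium phosphate laid down on a collagen matrix. Osteoblasts and hypertrophic chondrocytes supply phosphate through the phosphatases encoded by Alpl and Phospho1, and inorganic pyrophosphate, made by Enpp1 and exported with the help of Ank, blocks crystal growth until tissue-nonspecific alkaline phosphatase (Alpl) hydrolyses it. Mgp binds calcium and inhibits mineral in cartilage and vessels, whereas Ibsp and Dmp1 are acidic matrix proteins that bind mineral. Bglap encodes osteocalcin, a product of mature osteoblasts, and Phex is an endopeptidase of osteoblasts and osteocytes that restrains phosphate wasting.

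The 4 RNA-seq libraries held between 23978099 and 34106693 estimated counts. Mettl3 itself measured between 16.3 and 17.6 CPM (counts scaled to the library total with TMM factors) in every library, with a log2 fold change of −0.033 and overlapping groups, and since its counts cover the undeleted exons as well, they do not check the genotype. The groups are therefore named as labelled, and every direction below rests on the labels. The WT-labelled libraries differed more from each other (chi-square 32.6 times its expectation over all genes, 81.3 times over 9 of the mineralization genes) than the cKO-labelled ones (1.82 and 1.28 times, the latter over 8 genes). This measure grows with the count of a gene, so its values for all genes and for the mineralization genes cannot be compared. The coefficient of variation beyond counting was 12.3% in the WT-labelled pair and 1.93% in the cKO-labelled pair. The edgeR fit gives each gene 1 spread for both groups, so the close cKO-labelled pair lowers the spread behind every p-value. Of the 15327 genes tested, 2100 were called higher and 2577 lower in the cKO-labelled libraries, while limma on the deposited length-scaled values called 1684 higher and 1258 lower. The median log2 fold change of all genes was −0.0038 on the counts and 0.0993 on the length-scaled values.

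Alpl, Phospho1, Mgp, Ibsp and Bglap fell in the cKO-labelled libraries, and none of the tested genes was called higher. That is 5 of the 9 genes tested called lower at an adjusted p under 0.05, beside 16.8% of all genes tested, and 0 called higher, beside 13.7%, where 30.5% were called in either direction. Alpl, Phospho1 and Bglap, 3 of the 9, were called and at least 2-fold lower, beside 6.41% of all genes. At an unadjusted p under 0.05 the same 5 passed, and DESeq2 called 0 higher as well. The median log2 fold change of the 9 was −0.63, which is the value of Phex. In CPM, both cKO-labelled values lay below both WT-labelled values for 8 of the 9 genes, beside 35.0% of all genes, and for 0 of the 9 both lay above, beside 33.9%. On the length-scaled values this held for 5 of the 9, those called, beside 25.3% of all genes. These are descriptions of a named list and carry no test of the list.

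Levels of different genes can be compared on TPM, the deposited values scaled for gene length and library. Mgp was the most abundant in the WT-labelled libraries (916 ± 175 TPM, SD, n = 2), followed by Ibsp (163 ± 29.7 TPM). Slc20a1 (47.9 ± 2.47 TPM), Ank (42.1 ± 9.81 TPM) and Alpl (39.1 ± 5.68 TPM) came next, and Ank overlapped with both of its neighbours in this order, while the values of Slc20a1 and Alpl did not overlap. Phospho1 had 25.6 ± 4.14 TPM, and below it Bglap (13.5 ± 1.62 TPM) and Enpp1 (11.8 ± 2.88 TPM) overlapped. Phex (0.145 ± 0.106 TPM) and Dmp1 (0.130 ± 0.0283 TPM) were near the limit of detection. In the cKO-labelled libraries the order of the first 6 genes was the same, and Enpp1 (10.3 ± 0.233 TPM) stood above Bglap (6.07 ± 0.361 TPM). The summed level of the 10 genes was 1349 and 1169 TPM in the WT-labelled libraries against 887 and 871 TPM in the cKO-labelled ones, and Mgp alone made up between 67.8% and 77.0% of it.

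**Figure D1:**
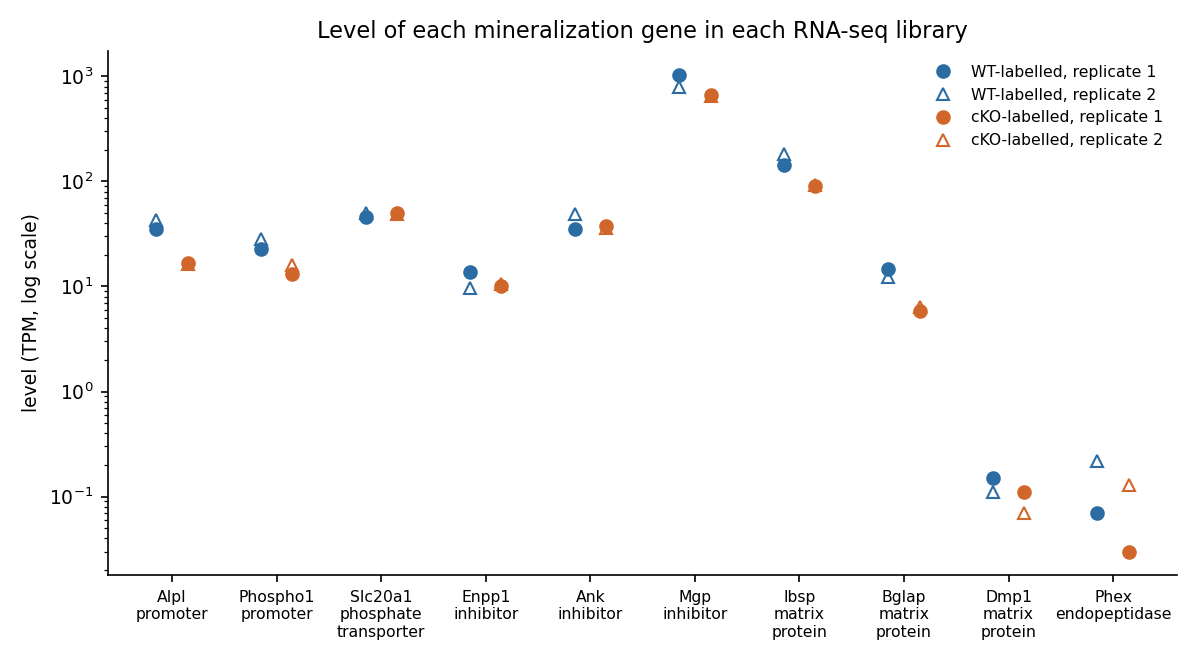
Level of each mineralization gene in TPM (vertical, log scale) in the 4 RNA-seq libraries, WT-labelled in blue and cKO-labelled in orange, with filled circles for replicate 1 and open triangles for replicate 2. Alpl, Phospho1, Mgp, Ibsp and Bglap have both orange points below both blue points, while Dmp1 and Phex lie at or below 0.22 TPM.

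Both promoter genes fell by more than 2-fold on the counts. Alpl (ENSMUSG00000028766, minus strand, GRCm38 chr4:137741733-137796384), the phosphatase that removes pyrophosphate, measured 59.9 and 75.2 CPM in WT-labelled replicates 1 and 2 and 27.6 and 26.7 CPM in cKO-labelled replicates 1 and 2. The cKO-labelled values were nearly equal and both were below the lower of the WT-labelled values. The log2 fold change was −1.32 (SE 0.117, 95% interval −1.60 to −1.03), a level 2.49-fold lower. Its adjusted p was 0.000574 (edgeR quasi-likelihood, Benjamini-Hochberg), and Alpl was the only one of the genes called under all 12 alternative settings. Leaving out 1 library at a time moved the log2 change of Alpl between −1.47 and −1.15.

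Phospho1 (ENSMUSG00000050860, plus strand, chr11:95824499-95832140), a phosphatase that frees phosphate from phosphocholine inside matrix vesicles, measured 12.5 and 17.5 CPM in the WT-labelled libraries and 5.45 and 6.40 CPM in the cKO-labelled ones. The groups did not overlap, and both cKO-labelled values were well under the lower WT-labelled one. Phospho1 thus had a log2 fold change of −1.33 (SE 0.191, 95% interval −1.79 to −0.87), with an adjusted p of 0.00371 by the same edgeR test and adjustment. On the TPM values, 22.6 and 28.5 against 13.2 and 16.02, the change was smaller, −0.80 on the log2(TPM + 0.1) scale (limma adjusted p = 0.0309, and 0.0706 without a filter). The whole of Phospho1 lies within Zfp652 on the same strand (7642 shared bases), and 2067 of its bases are shared with Abi3 on the opposite strand. Zfp652 (log2 fold change 0.61, adjusted p = 0.000874) and Abi3 (0.82, adjusted p = 0.00224) were both higher in the cKO-labelled libraries in the same edgeR fit. How reads were divided among the 3 genes was not given in the sources used here, so the size of the fall of Phospho1 is uncertain.

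Slc20a1 (ENSMUSG00000027397, plus strand, chr2:129198764-129211616), the sodium-phosphate cotransporter PiT-1 that brings phosphate into the cell, was not called. Its levels were 82.1 and 89.0 CPM in the WT-labelled and 79.9 and 78.1 CPM in the cKO-labelled libraries, and the cKO-labelled values lay just below the lower WT-labelled one. The log2 fold change was −0.11 on the counts (SE 0.0667, 95% interval −0.28 to 0.047, edgeR adjusted p = 0.243) and 0.045 on the log2(TPM + 0.1) scale, so the direction turned with the scaling. Without WT-labelled replicate 1 the change of Slc20a1 was −0.17. That fit passed the threshold, but with a lone WT-labelled library its spread comes from the cKO-labelled pair alone. Limma on TPM without a filter gave an adjusted p of 0.676.

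Of the 3 inhibitors, Mgp fell and Enpp1 and Ank were not called. Enpp1 (ENSMUSG00000037370, minus strand, chr10:24637914-24712159), the enzyme that makes pyrophosphate from nucleotides, measured 37.7 and 28.3 CPM against 26.2 and 26.6 CPM. The lower WT-labelled value was close to both cKO-labelled ones. Its log2 fold change was −0.32 (SE 0.139, 95% interval −0.66 to 0.011, edgeR adjusted p = 0.128). Here 1 library decided the value. Without WT-labelled replicate 2 it was −0.52, and without WT-labelled replicate 1 it was −0.092. Those fits hold a lone WT-labelled library, so their spread comes from the cKO-labelled pair and their p-values are not given. Without a filter on counts Enpp1 was called (edgeR adjusted p = 0.00913), and limma on TPM without a filter gave an adjusted p of 0.616. That unfiltered edgeR fit reflected the spread of single genes poorly. It gave Spp1, described below, an adjusted p of 1.8e-61 with 5863 and 14630 CPM in the WT-labelled libraries, where the filtered fit gave 0.131. Its call of Enpp1 therefore carries little weight.

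Ank (ENSMUSG00000022265, plus strand, chr15:27466677-27594909), the multipass membrane protein needed for pyrophosphate export, measured 87.6 and 124.6 CPM against 87.3 and 83.5 CPM. WT-labelled replicate 1 was level with cKO-labelled replicate 1, and only WT-labelled replicate 2 stood above. The difference on the log2 scale was −0.31 (SE 0.155, 95% interval −0.68 to 0.061, edgeR adjusted p = 0.178). It was −0.54 without WT-labelled replicate 1 and −0.041 without WT-labelled replicate 2, again fits with a lone WT-labelled library. Without a filter on counts Ank was called (edgeR adjusted p = 0.00102), in the same unfiltered fit that reflected the spread of single genes poorly. Limma on TPM without a filter gave an adjusted p of 0.551. Enpp1 and Ank thus differed between the WT-labelled libraries in opposite directions, Enpp1 being 1.34-fold higher in replicate 1 and Ank 0.703 times as high there as in replicate 2.

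Mgp (ENSMUSG00000030218, minus strand, chr6:136872435-136875823), the vitamin K-dependent matrix Gla protein, measured 270.5 and 225.4 CPM in the WT-labelled and 167.2 and 163.0 CPM in the cKO-labelled libraries. Every cKO-labelled value was below every WT-labelled one. Mgp had a log2 fold change of −0.59 (SE 0.0932, 95% interval −0.81 to −0.36), a level 1.502-fold lower, with an edgeR adjusted p of 0.0055. On the log2(TPM + 0.1) scale the change was −0.47 and did not pass (limma adjusted p = 0.0703, and 0.144 without a filter).

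Within a library, the ratio of a promoter to an inhibitor does not depend on how libraries are scaled to each other. On TPM, Alpl to Enpp1 was 2.54 and 4.43 in WT-labelled replicates 1 and 2 and 1.67 and 1.56 in cKO-labelled replicates 1 and 2. Alpl to Ank was 0.996 and 0.878 against 0.452 and 0.458, the one of the 3 ratios of Alpl in which the WT-labelled libraries differed least, and the mean of the former pair was 2.06 times that of the latter. Alpl to Mgp was 0.0337 and 0.0544 against 0.0255 and 0.0254. Both cKO-labelled values were the lower ones in all 3 ratios of Alpl.

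Phospho1 gave a less even picture. Phospho1 to Enpp1 was 1.64 and 2.93 in the WT-labelled libraries and 1.30 and 1.53 in the cKO-labelled ones. Phospho1 to Ank was 0.643 and 0.581 against 0.353 and 0.449. Phospho1 to Mgp was 0.0218 and 0.0360 against 0.0199 and 0.0249, so that the groups overlapped. In all, 5 of the 6 ratios had both cKO-labelled values below both WT-labelled ones on TPM, and 6 of 6 did on counts per kb of gene length, a scale chosen after seeing the data. Among all single genes tested, 25.3% did so on TPM, and the share among other pairs of genes was not worked out. The 6 ratios reuse Alpl and Phospho1, both already called lower, so they are not separate results. With 2 libraries against 2, an exact permutation test cannot go below p = 0.333 (two-sided), so the ratios were described and not tested.

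**Figure D2:**
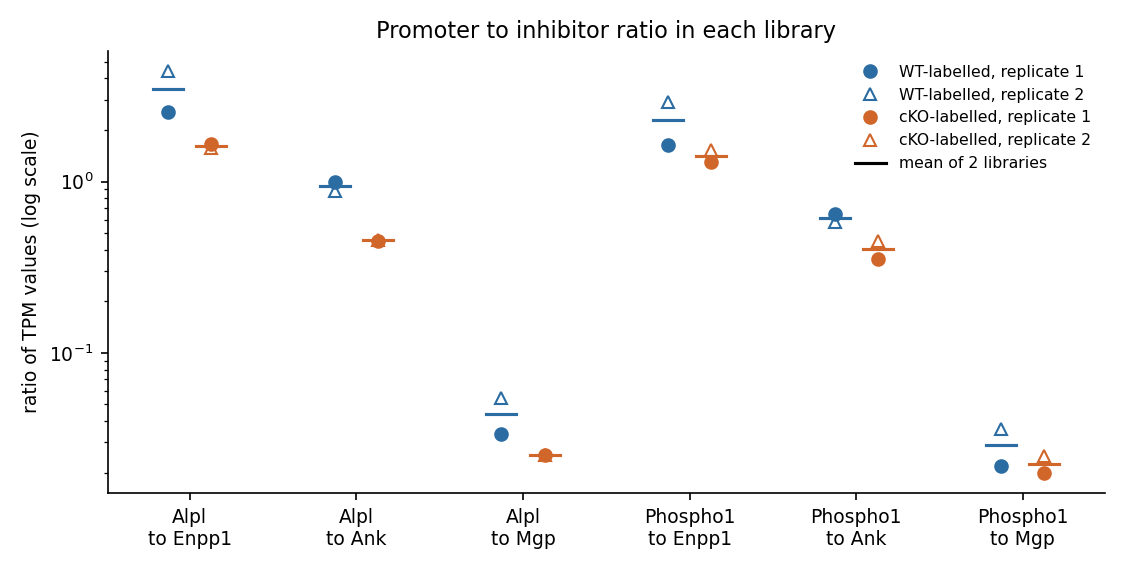
Ratio of the TPM of a promoter gene to that of an inhibitor gene (vertical, log scale) in each of the 4 libraries, with a bar at the mean of the 2 libraries of a group. The cKO-labelled points lie below the WT-labelled points in 5 of the 6 ratios, and the groups overlap for Phospho1 to Mgp.

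Among the matrix proteins, Ibsp and Bglap fell and Dmp1 was too low to test. Ibsp (ENSMUSG00000029306, plus strand, chr5:104299171-104311469), bone sialoprotein, measured 196.7 and 261.7 CPM in the WT-labelled and 117.2 and 122.0 CPM in the cKO-labelled libraries. The groups were well apart, and WT-labelled replicate 2 was the highest. Ibsp had a log2 fold change of −0.94 (SE 0.131, 95% interval −1.25 to −0.62), a level 1.92-fold lower, with an edgeR adjusted p of 0.00334. With 1 library left out the change of Ibsp lay between −1.12 and −0.72. The call of Ibsp was lost under limma on TPM without a filter (adjusted p = 0.0520).

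Bglap (ENSMUSG00000074483, minus strand, chr3:88383501-88384464) had few counts, 59.8 and 50.0 in the WT-labelled and 17.3 and 24.2 in the cKO-labelled libraries, or 1.77 and 1.77 CPM against 0.702 and 0.753 CPM. The WT-labelled values were alike here, unlike those of Ibsp. The log2 fold change of Bglap was −1.28 (SE 0.283, 95% interval −1.96 to −0.59, edgeR adjusted p = 0.0182). The call was lost without cKO-labelled replicate 1 (adjusted p = 0.141) or replicate 2 (0.131), in DESeq2 (0.0571) and with both cKO-labelled libraries summed (0.1096), in a range from 0.00158 to 0.141 over all settings, while the log2 change stayed between −1.33 and −1.04.

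Bglap has neighbouring copies with which it could share reads. The aligned transcripts of Bglap and Bglap2 were 98.6% identical over 440 bases, and 74.7% of the 50-base words of Bglap occurred in Bglap2. Against Bglap3 the values were 96.4% and 20.5%. Bglap2 was the more abundant copy (7.81 and 5.91 CPM against 4.21 and 3.98 CPM, log2 fold change −0.75, edgeR adjusted p = 0.0258), and Bglap3 was not called (0.444 and 0.248 CPM against 0.495 and 0.376 CPM, log2 fold change 0.29, adjusted p = 0.695, and −0.046 without WT-labelled replicate 2). The call of Bglap2 was lost without either cKO-labelled library (adjusted p = 0.112 and 0.153), with both of them summed (0.1102) and in all 3 limma fits on TPM (0.0964 to 0.184). The split of reads among the 3 copies was not tested.

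Dmp1 (ENSMUSG00000029307, chr5:104202613-104214102), a matrix protein of osteocytes, had 10 and 6 counts in the WT-labelled and 5 and 4 in the cKO-labelled libraries, under the filter. Phex (ENSMUSG00000057457, chrX:157162075-157415312) had 10 and 15 against 2 and 13 counts, so the groups overlapped. Its log2 fold change of −0.63 had a 95% interval from −2.36 to 1.09 (edgeR adjusted p = 0.547), too wide at this depth to tell a fall of Phex from a rise. Other osteocyte markers were as low: the summed level of Dmp1, Phex, Mepe, Sost and Fgf23 was 0.32 and 0.39 TPM against 0.26 and 0.23 TPM, with Sost at 0 in every library. The deposited position of Sost (chr11:101966760-101967015) was shorter than its gene length of 2066 bases. Whether its value of 0 reflects this was not tested.

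**Figure D3:**
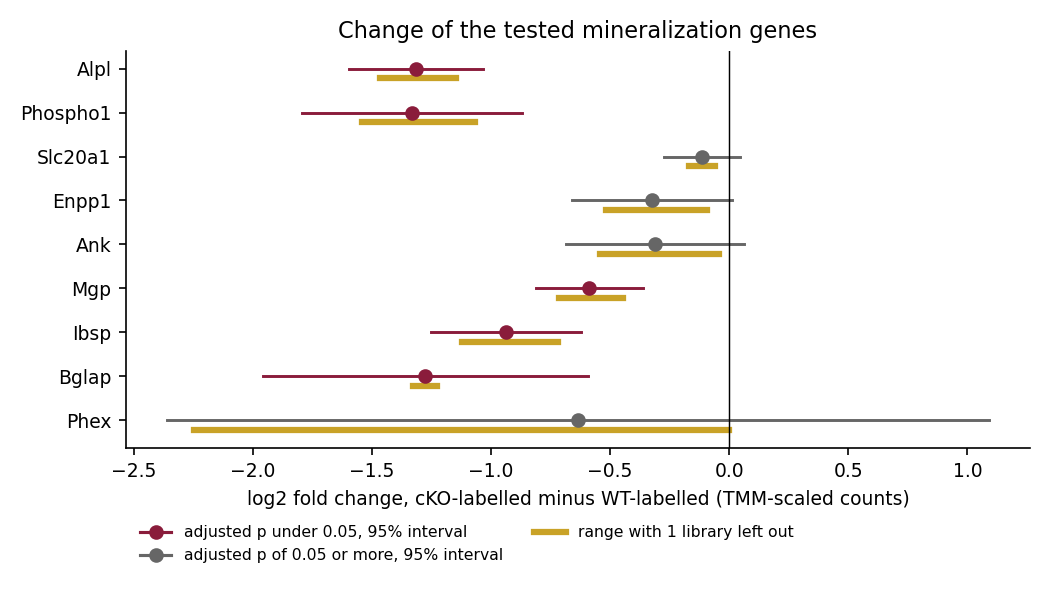
Log2 fold change of the 9 tested genes (horizontal, cKO-labelled minus WT-labelled, on TMM-scaled counts) with 95% intervals, red where the adjusted p was under 0.05, and in yellow the range when each of the 4 libraries was left out in turn. The intervals of Alpl, Phospho1, Mgp, Ibsp and Bglap lie below 0, and that of Phex runs from −2.36 to 1.09.

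The 3 genes whose profile over the 4 libraries was closest to that of Alpl, among 9527 genes with a mean of at least 10 CPM, were Mmp8, Vps37b and Ism1. The root-mean-square distance of their centred log2 CPM from Alpl was 0.0291, 0.0298 and 0.0313. Mmp8, for example, measured 13.3 and 16.3 CPM against 6.11 and 5.74 CPM. None of the 10 mineralization genes was among the 3.

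Several groups of other cells moved alongside these genes, beside 16.8% of all genes tested called lower and 13.7% called higher. All 5 osteoblast markers were called lower on the counts, but Ibsp and Bglap are 2 of them. Runx2 changed by −0.48 on the log2 scale of the counts but was nearly level on TPM (15.45 and 15.19 against 13.89 and 15.13). The summed level of the 5 went from 610 and 648 to 407 and 423 TPM. Of 7 chondrocyte markers, 6 were lower with a median log2 fold change of −5.37, and their sum went from 1288 and 1303 to 33.97 and 32.7 TPM, with none at 0 in every library. Cartilage also uses Alpl, Phospho1, Mgp and Ibsp. Of 5 adipocyte markers, 3 were higher and 1 lower (183 and 205 against 347 and 347 TPM). Macrophage markers were abundant in all libraries, 1893 and 1803 against 2052 and 2096 TPM, with 1 of 6 called, and both tested osteoclast markers were lower (sum of the 4 listed 114 and 98.4 against 70.6 and 69.0 TPM, Calcr at 0 in every library). Of 8 stromal markers, 3 were lower and 4 higher (823 and 774 against 815 and 798 TPM, none at 0 in every library). That level sum hides opposite changes. Thy1 rose from 3.5 and 1.65 to 69.98 and 65.22 TPM and Prrx1 from 42.36 and 37.9 to 86.35 and 88.54 TPM. Cxcl12, among the lower ones, went from 237.8 and 167.9 to 135.25 and 137.3 TPM. Neutrophil markers summed to at most 19.2 TPM, with S100a8 lower and S100a9 and Mpo at 0. The deposited positions of S100a9 (chr3:90695668-90695721) and Mpo (chr11:87804325-87804373) were shorter than their gene lengths, 519 and 2750 bases. Whether their values of 0 reflect this was not tested. Endothelial markers summed to 0.91 and 0.75 against 2.75 and 2.57 TPM with Kdr higher (log2 fold change 2.14), and erythroid markers to at most 0.64 TPM. In bulk RNA, fewer cells of a type and less RNA per cell cannot be told apart, and the part of these markers in the results was not tested.

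Beyond the 10 genes, 33 other genes of mineral metabolism in 5 lists were examined, of which 27 were tested. In the cKO-labelled libraries 13 of them were lower, 2 were higher and 12 were not called, with a median log2 fold change of −0.55. Of all genes tested, 16.8% were called lower and 13.7% higher, with a median of −0.0038. These shares stand beside each list below. The matrix list had 5 of the lower calls, and both higher calls were in the list of phosphate transport and matrix vesicles.

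In that list 1 of 6 tested genes was lower and 2 were higher. Smpd3, neutral sphingomyelinase 2, whose loss impairs bone mineralization in mice, rose from 16.6 and 14.7 CPM to 64.5 and 67.0 CPM (log2 fold change 2.07, edgeR adjusted p = 2.9e-05). Slc20a2, the PiT-2 cotransporter, rose from 22.5 and 22.1 to 29.6 and 28.4 CPM (0.38, adjusted p = 0.0152), whereas its paralogue Slc20a1 was not called. Of the annexins that matrix vesicles carry, Anxa2 fell by 0.55 on the log2 scale (528.8 and 572.8 against 377.6 and 373.3 CPM), and Anxa5 was at −0.015 with overlapping groups (0.056 on the log2(TPM + 0.1) scale and 0.041 without WT-labelled replicate 2).

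Of the 4 tested genes of pyrophosphate and purine handling, 3 were lower. Nt5e (CD73), which turns AMP into adenosine and phosphate, fell from 12.3 and 12.3 CPM to 2.85 and 2.04 CPM (log2 fold change −2.35, edgeR adjusted p = 0.000295). Ppa1, a cytosolic inorganic pyrophosphatase, fell from 29.4 and 35.3 to 17.3 and 17.4 CPM (−0.90, adjusted p = 0.00205). Enpp3, a relative of Enpp1, was low, at 1.18 and 1.13 CPM against 0.124 and 0.408 CPM (−2.03, adjusted p = 0.0270), and its call was lost without cKO-labelled replicate 1 (−1.49, adjusted p = 0.159), with both cKO-labelled libraries summed (0.0622) and under limma on TPM without a filter (0.122). Without cKO-labelled replicate 2 the change of Enpp3 was −3.18. Entpd1 (CD39) was not called (90.5 and 32.3 against 102.4 and 102.0 CPM), and WT-labelled replicate 2 stood apart from the other 3 libraries, the log2 change being 0.73, 1.67 without WT-labelled replicate 1 and 0.17 without WT-labelled replicate 2.

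In the matrix list, 5 of 7 tested genes were lower. Col1a2, a chain of type I collagen, fell by 1.14 on the log2 scale (1862 and 1759 against 811.1 and 828.6 CPM), and Sparc (osteonectin) fell by 1.02 (3402 and 3860 against 1780 and 1796 CPM). Omd, osteomodulin, measured 81.8 and 141.0 against 41.1 and 40.9 CPM (−1.44, edgeR adjusted p = 0.00607). Spp1, osteopontin, which binds crystals and inhibits their growth, was not called, and its WT-labelled libraries differed widely, 5863 and 14630 CPM, beside 5694 and 5626 CPM (−0.86, adjusted p = 0.131). Its log2 change was −1.36 without WT-labelled replicate 1 and −0.053 without WT-labelled replicate 2. Ibsp, Omd and Spp1 were each higher in WT-labelled replicate 2 than in replicate 1, and Mgp was lower there.

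Of the 7 processing genes, 3 were lower. Gas6, a vitamin K-dependent Gla protein, fell by 0.80 (2220 and 2208 against 1270 and 1282 CPM), Vkorc1, the vitamin K epoxide reductase, by 0.60 (82.7 and 102.8 against 61.9 and 60.2 CPM) and Ggcx, the gamma-carboxylase, by 0.55 (34.8 and 37.1 against 22.5 and 26.4 CPM) on the log2 scale, with edgeR adjusted p of 0.000198, 0.00817 and 0.00902. Vkorc1l1, a paralogue of Vkorc1, was at −0.019 with overlapping groups and was not called. Of the 3 tested genes of phosphate regulation, Vdr, the vitamin D receptor, fell from 168.6 and 156.1 to 18.5 and 20.1 CPM (−3.07, adjusted p = 5.0e-06), and Fgfr1 was at −0.087 on the counts and 0.11 on the log2(TPM + 0.1) scale and was not called.

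**Figure D4:**
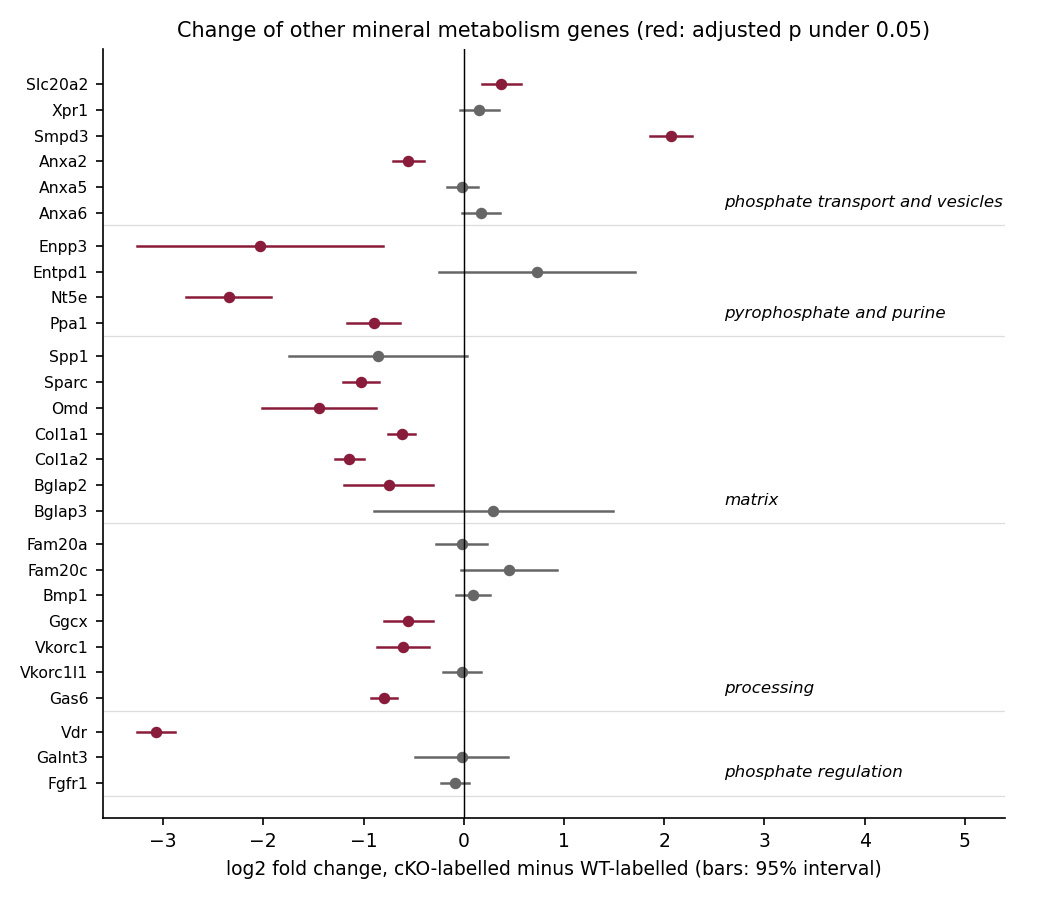
Log2 fold change (horizontal, cKO-labelled minus WT-labelled, on TMM-scaled counts) of the 27 tested genes of the 5 other lists of mineral metabolism, with 95% intervals, red where the adjusted p was under 0.05. Smpd3 stands at 2.07 and Vdr at −3.07, the ends of the range.

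The m6A list of wild-type MSCs placed 5 peaks by their summit in 4 of the 10 genes, Phospho1, Slc20a1, Ank and Ibsp, on mm9 gene models. Among the 14118 genes tested in RNA-seq that also had an mm9 gene model, 42.0% had a peak. Dmp1 was not among those genes. No peak of the list had its summit in Alpl, Enpp1, Mgp, Bglap, Dmp1 or Phex. The fold enrichment over background of the 5 peaks, as the authors' peak caller gave it, ran from 2.36 to 3.01, under the median of 4.03 over all 10160 peaks. Their −log10 q ran from 13.8 in Ank to 27.7 in Ibsp, beside a median of 14.2 over all peaks, and only that of Ank was under it. The list carries no replicate values and the depth behind it is unknown, so absence of a peak is not absence of m6A.

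The share of genes with a peak rose with the level of the gene and then declined, from 15.9% in the lowest of 10 equal classes by TPM to 53.3% in class 5 and 37.7% in class 10. Alpl lay in class 8 with Slc20a1 and Ank, where 50.1% had a peak, and Mgp in class 10 with Ibsp. Bglap (class 6, 53.0%) and Enpp1 (class 5) had none, and Phex was in class 1.

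**Figure D5:**
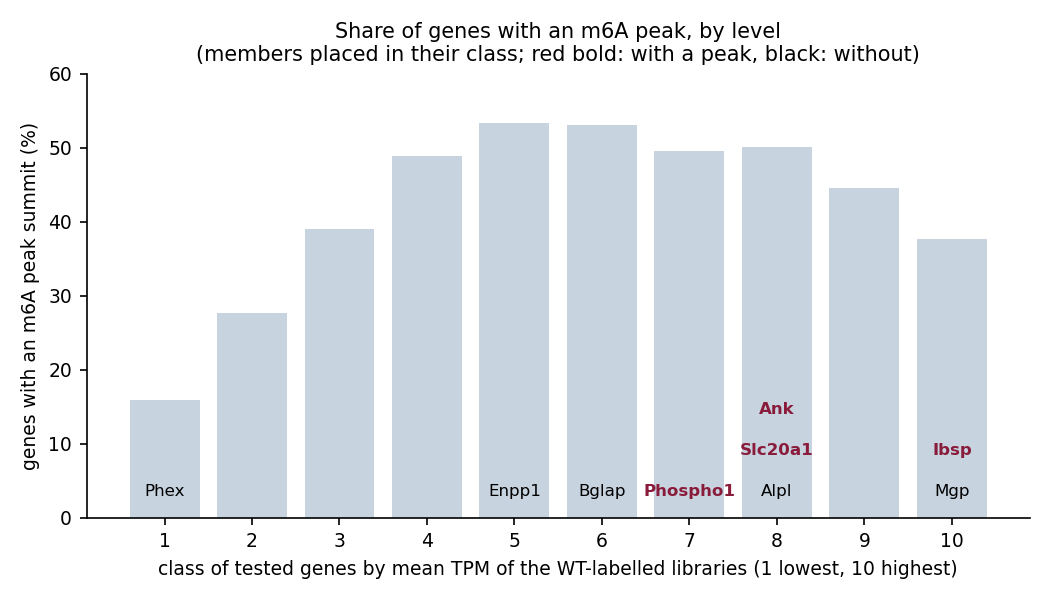
Share of genes with an m6A peak summit (vertical, percent) in each of 10 equal classes of the tested genes by mean TPM of the WT-labelled libraries (horizontal, 1 lowest, 10 highest), with the tested mineralization genes written in their class, in bold red if they had a peak. Phospho1, Slc20a1, Ank and Ibsp had one, and the share was 53.3% in class 5 and 37.7% in class 10.

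In Ibsp the peak covered chr5:104738941-104739445 (mm9) in the last of 7 exons, with its summit in coding sequence (CDS) at −353 nt from the first base of the stop codon. It had the highest pileup of the 5 peaks (242 fragments), the lowest fold enrichment (2.36) and a −log10 q of 27.7, higher than that of 85.1% of all peaks. In Ank the peak covered chr15:27523207-27523451 in the last of 12 exons, with its summit in the 3′UTR at 403 nt from that base, a fold enrichment of 2.88 and a −log10 q of 13.8. In Slc20a1 the peak covered chr2:129033829-129034140 in exon 8 of 11, with its summit in CDS at −718 nt, a fold enrichment of 2.83 and a −log10 q of 15.3. Another peak had its summit 190 bases before the start of Slc20a1 and reached 351 bases into it, with a fold enrichment of 7.60.

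Phospho1 held 2 peaks in its last exon. The first covered chr11:95691708-95692536, with its summit in CDS at −397 nt (fold enrichment 2.74, −log10 q 20.02), and the second chr11:95692750-95692990, with its summit in the 3′UTR at 263 nt (3.01, −log10 q 18.99). Both summits also lay in the 3′UTR of Zfp652 on the same strand and of Abi3 on the opposite strand, and a further peak lay 476 bases past the end of Phospho1. The list gives no strand, so these peaks cannot be assigned to 1 of the 3 genes. When a peak was counted only for the gene with the most counts, a rule chosen after seeing the data, Phospho1 lost both and 3 peaks in 3 of the genes were left.

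Methylation by Mettl3 is known to favour GGAC, in which the A is modified. GGAC was present on the transcript strand in 86.7% of all peaks within genes and in each of the 5 peaks here. The sequences below show the GGAC nearest to the summit of 4 of the peaks in the transcript direction, with GGAC in capitals, so that the sites the peaks could mark can be compared. They were read from the mm9 genome at chr11:95692973-95692997 for the second peak of Phospho1, chr2:129034041-129034065 for Slc20a1, chr15:27523284-27523308 for Ank and chr5:104739365-104739389 for Ibsp, all on the plus strand.
Phospho1, second peak, 3′UTR: tctttcaaacGGACtcaggatcccc
Slc20a1, CDS: ggattcgaatGGACagttacaccag
Ank, 3′UTR: tggaaccaaaGGACttgggccagac
Ibsp, CDS: gaagcctatgGGACcacctcgccac
The first peak of Phospho1 held 5 GGAC, that of Slc20a1 3, that of Ank 2, and the second peak of Phospho1 and that of Ibsp 1 each. The GGAC printed lay 101 bases from the summit in the second peak of Phospho1, 68 in Slc20a1, 77 in Ank and 140 in Ibsp. A GGAC here is a match of letters and was not shown to be methylated.

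Bglap itself had no peak, while Bglap2 had one at chr3:88182459-88182719 (fold enrichment 4.70, −log10 q 8.94) and Bglap3 one at chr3:88173415-88173625 (4.88, −log10 q 7.12), both over the start of the coding sequence. The GGAC nearest to the summit lay just after the start codon in both copies, and the same GGAC was present in Bglap. The sequences are shown because the copies are nearly alike there, from the minus strand of mm9 at chr3:88188319-88188343 for Bglap, chr3:88182554-88182578 for Bglap2 and chr3:88173440-88173464 for Bglap3, with GGAC in capitals.
Bglap: gacaccatgaGGACcatctttctgc
Bglap2: gacaccatgaGGACcctctctctgc
Bglap3: gacaccatgaGGACcctctctctgc
Within these 25 bases Bglap differed from Bglap2 by C10A and C14T, where the base of Bglap2 comes first, that of Bglap last, and positions count from 1 at the A of the start codon. Bglap3 was identical to Bglap2, so reads over this stretch alone cannot be told apart between those copies.

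RUNX2, the master transcription factor of osteoblasts, belongs to a family that binds the core TGTGGT, and the osteocalcin promoter is a textbook case of its binding. TGTGGT was searched on both strands of the RefSeq promoter windows (GRCm38.p6, 250 bases before to 50 after the start), which 9 of the 10 genes had. It was found in 4, Slc20a1, Enpp1, Bglap and Dmp1, or in 4 of the 12 windows of the 9 genes, beside 16.8% of all 32851 windows and 18.9% of the 27025 genes with a window. Of these 4, only Bglap was called lower, Dmp1 was not tested, and the windows of Alpl, Phospho1 and Ibsp did not hold the letters. The stretches of Bglap (chr3:88384583-88384608, gene on the minus strand) and Slc20a1 (chr2:129198686-129198711, plus strand) are shown in the direction of the gene as one gene that fell and one that was not called, with the motif in capitals, which in Bglap reads as its reverse complement.
Bglap, from −132: gcaatcacctACCACAgcatcctttg
Slc20a1, from −77: ccgaccagccTGTGGTtgcgtcacat
The numbers give the first base of the motif relative to the start site.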

How the data were processed

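The authors mapped RNA-seq reads with HISAT2 2.0.4 per the labels and deposited estimated counts per gene, not normalized, and a value headed FPKM that sums to the same total in every library (1000000) and was treated as TPM. Gene positions are those of GRCm38. The counting method and its use of strand were not given in the sources used here. The authors deposited 1 peak list in MACS2 layout on mm9 with pileup signal, fold enrichment (a ratio), and −log10 p-value and q-value. Comparison of positions placed 9301 summits in genes by mm9 models (GENCODE vM1) and 5147 by the positions of the table.

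Estimated counts were rounded. The 89 entries without a gene name (0.1098% to 0.125% of counts) were left out. Genes were filtered with filterByExpr, TMM-scaled and tested two-sided with edgeR 4.0.16 (glmQLFit, glmQLFTest), adjusted by Benjamini-Hochberg over 15327 genes. CPM are on the TMM scale. The SE is the size of the log2 fold change over the root of its F statistic. Scripts were tested on simulated data. Promoter motifs came from RefSeq windows. The sequence of 1 peak is not reported here. Intervals cover the spread between libraries or counting only, since reads carried no molecular identifiers. Alternatives were a replicate block, no filter, median-of-ratios factors, DESeq2 1.42.0, limma 3.58.1 on log2(TPM + 0.1) and log2(TPM + 1), each library left out and the cKO-labelled libraries summed. Same-numbered libraries did not deviate together (correlation 0.0264).

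The named genes were the 10 members, Mettl3, from each other list the 2 genes with the highest mean and those called with at least a 2-fold change, the copies of Bglap, genes overlapping a member, and the 3 profiles nearest to Alpl. Slc20a2, Ggcx, Vkorc1l1 and the markers were named after their values were seen. The members and lists were chosen with earlier results of these data known.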

Additional observations from a re-analysis of the deposited data

How the results depend on the processing

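Of 106 values of single mineralization genes under the alternatives, 88 kept their direction and their side of the threshold, 9 lost the call, 5 gained it and 4 changed sign. Of 212 values of other named genes, 182 kept both and 10 each lost, gained or changed sign. The sign changes were Slc20a1 under limma on log2(TPM + 0.1), with or without a filter (0.045), and on log2(TPM + 1) (0.044), Anxa5 (0.056) and Fgfr1 (0.11) under the same 3 limma fits, and, in the range with 1 library left out, Phex (−2.25 to 0.0011, the latter without cKO-labelled replicate 1), Anxa5 (−0.065 to 0.041) and Bglap3 (−0.046 to 0.79), both turned by WT-labelled replicate 2, and Mettl3 (−0.078 to 0.023, turned by WT-labelled replicate 1 or cKO-labelled replicate 2, 0.0013 without the former). None of these was called. The median of the tested mineralization genes went from −0.63 to −0.45 under limma on TPM without a filter, where 2 genes were called, and lay between −0.997 and −0.60 with 1 library left out. The number called was 4 to 7 with 1 library left out, 7 without a filter on counts and 4 in DESeq2 and with the cKO-labelled libraries summed. The causes were not tested. Replicate numbers did not pair the libraries (correlation of same-numbered deviations 0.0264), and with the replicate number as a block the median was −0.80, which is again the value of Phex, with 5 genes called. Among the other named genes the block changed the calls of Spp1 (−0.71, adjusted p = 0.0451) and Entpd1 (0.89, adjusted p = 0.0244), both also called without a filter on counts, in edgeR. That unfiltered edgeR fit gave Spp1 an adjusted p of 1.8e-61 despite its widely differing WT-labelled libraries. Peaks in the genes went from 5 to 3 when each was counted for the gene with the most counts only. On counts per kb, the log2 change of Phospho1 to Ank was −1.03 in place of −0.61 and that of Phospho1 to Mgp −0.79 in place of −0.37. Over all genes 4677 were called, 1760 under limma on TPM without a filter, 2012 with the cKO-labelled libraries summed, 1867 and 1904 without 1 cKO-labelled library and 7934 and 8750 without 1 WT-labelled library. With 1 library left out, the lone library is assumed to vary like the other group, so without a WT-labelled library the spread comes from the closer cKO-labelled pair alone. Genes under about 20 counts, Dmp1 and Phex, could not be judged at this depth.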
